A study of Mus musculus with 3 samples.

Results

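Raly and 9 genes of heterogeneous nuclear ribonucleoproteins (hnRNPs) were examined for ZFP410 binding in brown preadipocytes, which give rise to heat-producing fat cells. The 10 genes are Raly, Hnrnpc, Hnrnpa1, Hnrnpa2b1, Hnrnpa3, Hnrnpk, Hnrnpu, Hnrnpd, Hnrnpl and Hnrnpm, out of 21887 protein-coding genes on placed chromosomes. They were chosen by name with the peak lists of these same libraries already known, and their peaks were selected on the position of the summit, the base of most fragments. A peak was assigned to a gene when its summit lay within 1 kb of either end of the gene (a gene-end peak) or inside the gene, and the nearest summit was found for every gene. Whether a gene has such a peak is therefore a description of the chosen genes and was not tested.

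Binding was mapped by CUT&Tag, in which an antibody brings a transposase to chromatin and the enzyme tags the DNA beside the bound protein. The induced library came from ZFP410 antibody on cells kept for 3 days in brown adipocyte differentiation medium, the untreated library from the same antibody on cells without that medium, and the IgG library from control antibody on untreated cells. All 3 came from cells sorted as Lin−CD29+CD34+Sca1+ from the brown fat of male wild-type C57BL/6 mice, with no transgene or knockout. Each group had 1 library, so the spread between cultures is unknown and no test was run; whether cells of several mice were pooled is not given in the sources used here. In such bulk samples, more bound cells and more binding per cell cannot be told apart. Of the sort marker genes Itgb1, Cd34 and Ly6a and the preadipocyte gene Pdgfra, only Pdgfra had a summit inside it. That peak held 5 fragments in the induced library, where the weakest peak held 4. Of all protein-coding genes 11.9% had an induced summit inside them. Peaks of a DNA-binding protein do not measure expression, and the cell type could not be checked from them.

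hnRNPs coat newly made RNA in the nucleus and take part in its splicing, export, stability and translation. HNRNPC and its close relative RALY bind uridine-rich stretches, and in human cells the RNA mark m6A opens such stretches to HNRNPC. HNRNPA2B1 is also described as a reader of m6A, the mark that the WTAP complex writes. HNRNPU is a partner of the long non-coding RNA Blnc1 in mouse brown adipocytes.

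The lists held 7475 induced, 3256 untreated and 480 IgG peaks. The number of fragments at each summit was recovered from the authors' fold and p-value. The genome-wide background was 0.246 fragments in the induced, 0.110 in the untreated and 0.0231 in the IgG library. A site of equal enrichment over this background thus holds 2.24 times as many fragments in the induced library as in the untreated one, and is called more readily. The weakest peak held 4 fragments in the induced, 3 in the untreated and 2 in the IgG list.

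ZFP410 peaks lay at the starts of Raly, Hnrnpc, Hnrnpa1, Hnrnpa3 and Hnrnpd in induced cells, and of these genes only Hnrnpa3 had one in untreated cells. The promoter DNA of the 4 genes with the most induced fragments is shown because the induced peaks reach into it. Each run covers 250 bases before and 50 after the listed start on the strand of the gene, from RefSeq (GRCm38.p6, the assembly that mm10 names), and capitals mark the bases under the induced peak. The runs are Raly at chr2:154790860-154791159 (plus strand), Hnrnpc at chr14:52103972-52104271 (minus), Hnrnpa1 at chr15:103240147-103240446 (plus) and Hnrnpa3 at chr2:75659009-75659308 (plus).
Raly: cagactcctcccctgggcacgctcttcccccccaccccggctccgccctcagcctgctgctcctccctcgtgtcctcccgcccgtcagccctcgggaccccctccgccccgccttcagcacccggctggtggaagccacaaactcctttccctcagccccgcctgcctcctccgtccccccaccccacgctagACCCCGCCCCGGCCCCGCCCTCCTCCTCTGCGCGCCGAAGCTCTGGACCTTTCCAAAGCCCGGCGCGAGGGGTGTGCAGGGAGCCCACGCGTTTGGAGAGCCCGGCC
Hnrnpc: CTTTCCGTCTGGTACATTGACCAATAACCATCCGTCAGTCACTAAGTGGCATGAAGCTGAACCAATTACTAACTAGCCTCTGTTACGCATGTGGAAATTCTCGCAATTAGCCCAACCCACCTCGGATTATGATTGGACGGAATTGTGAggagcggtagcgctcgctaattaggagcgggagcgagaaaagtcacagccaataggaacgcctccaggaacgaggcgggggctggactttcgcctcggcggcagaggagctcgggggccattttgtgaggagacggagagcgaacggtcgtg
Hnrnpa1: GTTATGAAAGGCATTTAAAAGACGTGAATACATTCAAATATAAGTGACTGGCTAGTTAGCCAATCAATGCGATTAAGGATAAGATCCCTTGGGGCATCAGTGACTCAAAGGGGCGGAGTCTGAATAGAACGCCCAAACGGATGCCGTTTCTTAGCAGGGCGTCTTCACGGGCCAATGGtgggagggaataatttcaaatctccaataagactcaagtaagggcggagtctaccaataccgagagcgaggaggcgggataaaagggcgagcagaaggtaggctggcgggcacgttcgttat
Hnrnpa3: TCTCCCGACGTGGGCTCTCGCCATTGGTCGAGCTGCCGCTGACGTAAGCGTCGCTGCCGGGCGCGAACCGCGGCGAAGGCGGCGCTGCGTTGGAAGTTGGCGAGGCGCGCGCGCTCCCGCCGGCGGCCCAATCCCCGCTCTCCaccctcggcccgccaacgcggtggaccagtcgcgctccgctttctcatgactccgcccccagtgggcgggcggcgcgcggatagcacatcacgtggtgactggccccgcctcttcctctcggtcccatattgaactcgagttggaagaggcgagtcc

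The induced peak covered the last 107 bases of the Raly run, across the start itself, and its summit fell on base 238. It covered the first 148 bases of the Hnrnpc run with the summit on base 55, and the first 178 of the Hnrnpa1 run with the summit on base 13. At Hnrnpa3 it covered the first 143 bases, with its summit outside the run on the upstream side. The Hnrnpd peak ended short of the 300 bases listed for that gene and is not shown.

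These promoters differed in base composition. GC content was 73.7% for Raly, 54.3% for Hnrnpc, 48.3% for Hnrnpa1 and 70.3% for Hnrnpa3, and over the promoters of all 10 genes it ran between 48.3% and 73.7%. The number of CpG dinucleotides ran between 16 and 45, where the median was 7 over all 32851 RefSeq promoter runs and 24 over the 972 that hold an induced summit. The sequence GGGCGG, the core of a GC box, was searched on both strands and occurred 5 times in Raly (each as its reverse complement), 2 times in Hnrnpa1 and 3 times in Hnrnpa3, but not in Hnrnpc. CCAAT, the CCAAT box, occurred 4 times in Hnrnpc, 4 times in Hnrnpa1 and 2 times in Hnrnpa3, but not in Raly. These counts cover all 300 bases, and not every match lay under the induced peak. Under it were the GGGCGG matches at bases 197 and 208 of Raly and 111 of Hnrnpa1. Those of Hnrnpa3, at bases 196, 207 and 211, lay outside it. The CCAAT matches under the peak were at bases 21, 62 and 132 of Hnrnpc, 60 and 172 of Hnrnpa1, and 23 and 128 of Hnrnpa3. Each of these motifs was found in 6 of the 10 genes. GGGCGG was held by 69.8% of the runs with an induced summit, against 35.7% of all runs, and CCAAT by 45.9%, against 37.4%. CCCATAA, a part of the consensus bound by ZFP410's human counterpart ZNF410, was in none of the promoters of the 10 genes. It was held by 2.37% of the runs with an induced summit, against 2.50% of all runs. None of the 3 motifs contains another, and a match or its lack describes only these letters in this stretch.

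Raly, which encodes an RNA-binding protein closely related to hnRNP C, carried the strongest site of the group. The gene lies at 154790920 to 154871010 on chromosome 2 (mm10), and the induced peak at 154791053 to 154791556 held 19 fragments (95% Poisson interval 11.4 to 29.7), with its summit 13 bp before the listed start. This was 77.2 times the genome background, with an authors' fold of 16.05 and a −log10 q of 25.8, and 102 of the 1590 induced gene-end peaks (6.42%) held more fragments. In the untreated list the nearest summit to Raly was 154413 bp away. At equal enrichment the site would have held 8.48 untreated fragments (5.11 to 13.2), above the 3 that sufficed for a call at the genome background. A further induced peak inside Raly, 18188 bp after the start at 154809294 to 154809466, held 5 fragments. Exons and introns were not analysed here.

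Hnrnpc encodes the hnRNP C proteins, which form a core particle on new transcripts. Its induced peak at 52104124 to 52104340 on chromosome 14 held 15 fragments (8.40 to 24.7), 178 bp outside the gene (52073377 to 52104039) and 196 bp before its start. The local background there was raised to 2.01 fragments, so that the authors' fold was only 5.31 and the −log10 q 5.57. The nearest untreated summit was 66451 bp away. At equal enrichment 6.70 untreated fragments (3.75 to 11.04) would have been expected. The 23 untreated peaks over a background within 20% of that expected at this site held 6 or more, so the expected number lay close to the least that was called. The background expected there rests on the assumption that the induced and untreated lists were called against the same control.

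Hnrnpa1 and Hnrnpa3 encode related splicing regulators of the A/B type. The induced Hnrnpa1 peak at 103239780 to 103240324 on chromosome 15 (gene 103239943 to 103246698) held 12 fragments (6.20 to 21.0), 238 bp before the listed start, at a fold of 10.4. The nearest untreated summit was 124267 bp away, and 5.36 fragments (2.77 to 9.36) would have been expected at the gene at equal enrichment. This interval reaches below the 3 fragments of the weakest call. Hnrnpa3 (chromosome 2, 75659105 to 75669407) had overlapping peaks in both lists, at 75658832 to 75659151 with 8 induced fragments (3.45 to 15.8) and at 75658979 to 75659104 with 5 untreated fragments (1.62 to 11.7). They shared 126 bp, with the summits 313 bp and 196 bp before the start. Enrichment in induced over untreated cells was 0.714 (95% exact binomial interval 0.206 to 2.77), so no difference was detectable at this depth.

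Hnrnpd encodes AUF1, a protein that binds AU-rich elements and regulates mRNA decay. Its induced peak at 99979278 to 99979428 on chromosome 5 (gene 99955935 to 99979130) held 5 fragments (1.62 to 11.7), 353 bp before the start, and 1199 of the 1590 induced gene-end peaks (75.4%) held more. Only 2.23 untreated fragments (0.725 to 5.21) would have been expected there, below the weakest untreated call, so the lack of an untreated peak says little at this depth. Sites chosen for a call in the induced list favour that list, and the expected numbers can be too high for the same reason.

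**Figure D1:**
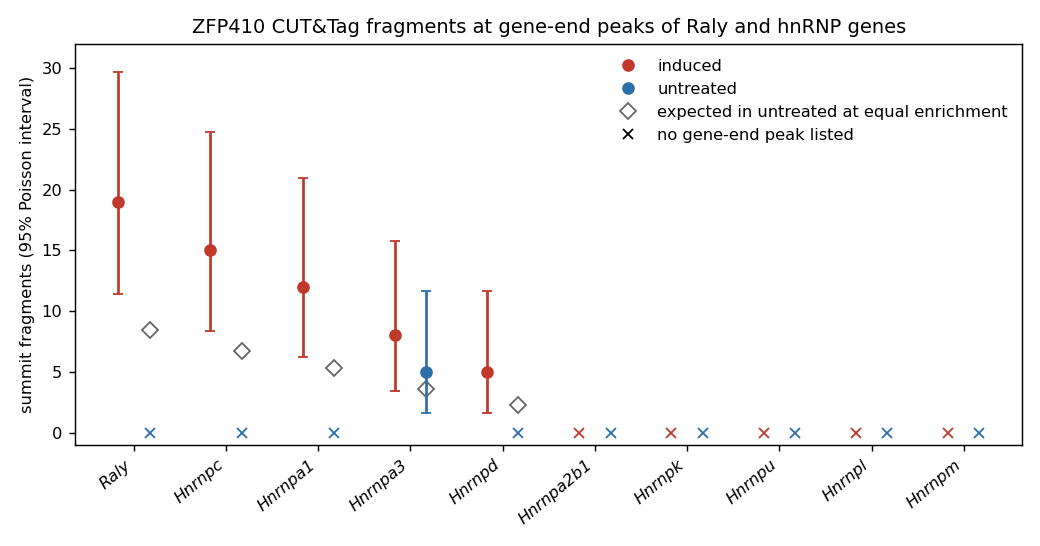
Summit fragments of gene-end peaks for each of the 10 genes (x axis: gene; y axis: fragments), in the induced and the untreated library, with 95% Poisson intervals of counting error. Open diamonds give the untreated fragments expected at equal enrichment and crosses mark genes with no listed peak, which is not a measured 0; Raly holds 19 induced fragments and Hnrnpa3 alone has peaks in both.

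At the ends of the other 5 genes neither ZFP410 list held a peak. Hnrnpu, which encodes a chromatin-associated hnRNP also known as SAF-A, came closest to the 1 kb limit. Its nearest induced summit, with 4 fragments at 178322107 to 178322252 on chromosome 1, lay inside the gene (178321108 to 178338891) and 1026 bp from its downstream end. On the inner side of the limit the farthest of the 5 induced gene-end summits was that of Hnrnpa1, 216 bp from the gene end. Beyond the downstream end of Hnrnpu, a peak at 178318832 to 178319106 held 6 induced fragments and one at 178318868 to 178319068 held 5 untreated ones, their summits 49 bp apart. The ratio of enrichment, induced over untreated, was 0.536 (0.136 to 2.22). Another induced peak there, at 178318148 to 178318290, held 7 fragments. All of these Hnrnpu peaks lay inside Cox20, a gene of cytochrome c oxidase assembly that converges on Hnrnpu (178318095 to 178322693), and the last summit was 158 bp from the start of Cox20.

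Hnrnpl, whose product binds CA-rich RNA and regulates splicing, had an induced peak of 13 fragments at 28824927 to 28825159 on chromosome 7, 2803 bp beyond its downstream end (gene 28808546 to 28822268). That summit was only 267 bp from Ech1, a gene of fatty acid oxidation, which lies on the same strand. The nearest untreated peak, with 3 fragments at 28802743 to 28802886, was on the other side of Hnrnpl, 5716 bp from it. Cox20 and Ech1 were named after their positions had been seen. Hnrnpa2b1 (chromosome 6), Hnrnpk (chromosome 13), which encodes a poly(C)-binding protein, and Hnrnpm (chromosome 17), a splicing regulator, had no ZFP410 summit within 10 kb in either list. Their nearest induced summits were 189595, 251428 and 205322 bp away, and their nearest untreated ones 341327, 131199 and 132096 bp. Over all protein-coding genes the median distance was 84781 bp in the induced and 194151 bp in the untreated list, so these 3 genes were farther than the median from an induced summit.

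**Figure D2:**
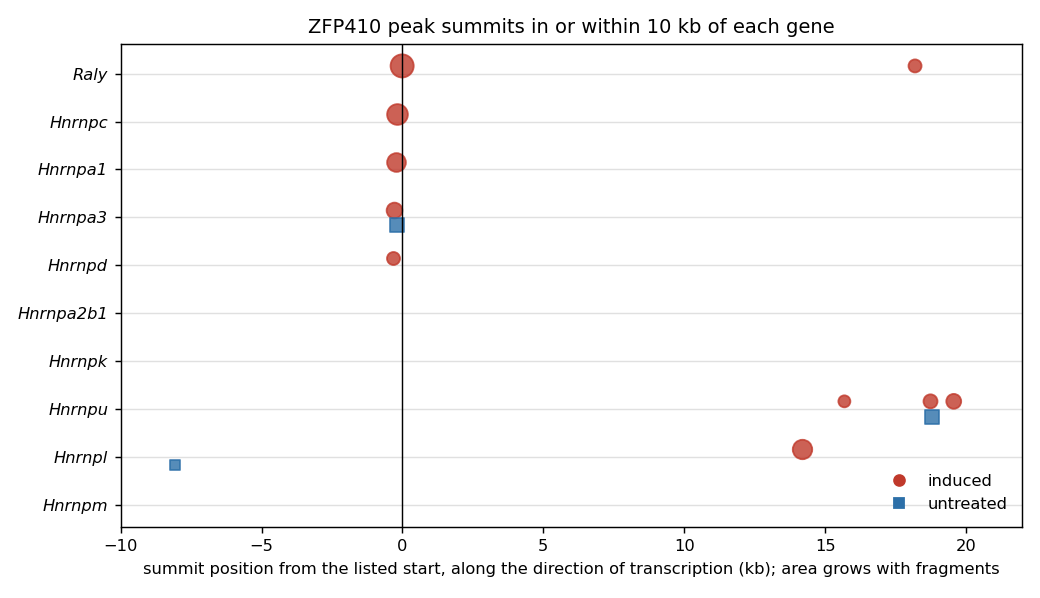
Position of every ZFP410 summit inside or within 10 kb of each gene (x axis: kb from the listed start in the direction of transcription; rows: genes; induced circles above untreated squares; area grows with fragments). The 5 genes in the upper rows have induced summits between 13 and 353 bp before their starts, while induced summits of Hnrnpu and Hnrnpl lie 14181 to 19562 bp after theirs and the rows of Hnrnpa2b1, Hnrnpk and Hnrnpm are empty.

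Counted together, the induced list held gene-end peaks of 5 of the 10 genes, against 8.43% of all protein-coding genes, and the untreated list those of 1 of 10, against 3.73%. In 4 of 10 the peak was in the induced list without an untreated one (6.03% of all genes), and in 1 of 10 it was in both (2.4%). Because the genes were chosen with these lists known, nothing is read from the excess. Summits inside the gene were found for Raly, Hnrnpa1 and Hnrnpu in the induced list (3 of 10, against 11.9% of all genes) and for none in the untreated list (6.27%). The Hnrnpa1 summit and the stronger one of Raly are those of the gene-end peaks, counted again here. They lay inside the gene's span but 238 and 13 bp before the listed starts. The Hnrnpu summit lay inside Cox20 as well. All 5 induced peaks were at the transcription start and none at the other end. That is the common position: of the 1520 protein-coding genes with an induced gene-end peak and a known strand, 94.5% had it at the start.

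Taking the start listed by RefSeq in place of the gene ends left the counts at 5 induced and 1 untreated, against 8.89% and 3.94% of the 17492 genes with a listed start. The promoters of all 10 genes hold at least 15 CpG, a bound set after the data had been seen. Among the 8748 genes whose promoters do, 15% had an induced summit within 1 kb of the start and 6.73% an untreated one. CpG-rich promoters thus had summits more often than promoters at large, and their part in the counts of hnRNP genes was not tested.

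Several of the hnRNP sites lay beside a neighbouring gene. Of the 5 induced peaks, 4 had the end of another annotated gene of any kind within 1 kb, and that of Raly had none. Over all 1590 induced gene-end peaks the share was 36.7% (95% Wilson interval 34.4 to 39.1). The Hnrnpc summit was 24 bp from Rpgrip1, a photoreceptor cilium gene transcribed away from Hnrnpc. The Hnrnpa1 summit was 255 bp from Cbx5, which encodes the heterochromatin protein HP1α and is transcribed the opposite way. The Hnrnpa3 summit was 9 bp from the lncRNA gene Gm39859, and the Hnrnpd summit lay inside 4930524J08Rik, a coding gene that overlaps the start of Hnrnpd. A second protein-coding gene was thus served by 3 of the 5 peaks. Of all induced gene-end peaks 23.0% served more than 1 protein-coding gene (21.0 to 25.2). The genes were chosen with these peaks known, and the difference was not tested. Which gene of such a pair a peak belongs to cannot be told apart from its position.

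Larger induced peaks were more often found in the untreated list, which gives a scale for the genes with no untreated peak. Of the 391 induced gene-end peaks with 4 or 5 fragments, the size of Hnrnpd, 11.5% overlapped an untreated peak (Wilson interval 8.71 to 15.1). The share was 31.4% (26.3 to 36.9) of the 287 peaks with 8 or 9 fragments, the size of Hnrnpa3. It was 33.2% (27.4 to 39.6) of the 226 with 10 to 12, the size of Hnrnpa1. It rose to 47.0% (36.6 to 57.6) of the 83 with 13 to 15, the size of Hnrnpc, and 51.1% (37.2 to 64.7) of the 47 with 16 to 19, the size of Raly. For sites as large as that of Raly, an untreated peak was thus listed in 24 of 47 cases. The intervals and the shares cover counting error only. The classes rest on fragments alone, whatever the local background, which was raised to 2.01 fragments at Hnrnpc. The share was not worked out for sites on such a background.

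**Figure D3:**
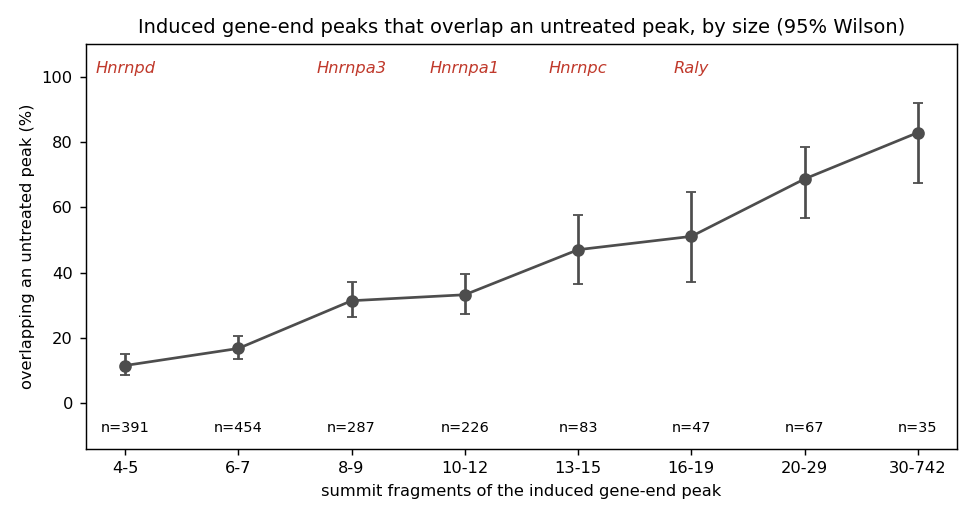
Share of induced gene-end peaks that overlap an untreated peak by at least 1 bp (y axis, %), by the summit fragments of the induced peak (x axis), with 95% Wilson intervals and the number of peaks below. The share runs between 11.5% and 82.9%, and names above mark the class of each hnRNP gene and Raly, of which only Hnrnpa3 had an untreated peak.

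Other hnRNP and related RNA-binding genes gave a wider view. Of 28 such genes in the gene table, 8 had an induced gene-end peak (28.6%) and 4 an untreated one (14.3%). Over all protein-coding genes the shares were 8.43% and 3.73%. This list was also chosen with earlier results known, so nothing is read from the excess. Taf15, which encodes an RNA-binding protein associated with the transcription factor TFIID, had 17 induced fragments at 83472634 to 83473120 on chromosome 11. Hnrnph3 held 11 induced and 8 untreated fragments and Pcbp2, which encodes a poly(C)-binding protein, 12 induced and 5 untreated. Their ratios of enrichment, induced over untreated, were 0.614 (0.225 to 1.76) and 1.07 (0.351 to 3.88). Pcbp3 had 6 induced and 4 untreated fragments. Hnrnpab, Hnrnpul2 and Cirbp had induced but no untreated gene-end peaks, with 5, 13 and 9 fragments. The induced gene-end peaks of Hnrnpul2, Cirbp and Taf15 stood on raised local backgrounds of 3.66, 1.32 and 0.736 fragments. That of Cirbp had its summit 2794 bp before the nearest listed start. Another induced Cirbp peak had 14 fragments over a local background of 3.91. Its summit lay 507 bp before the nearest listed start, but not within 1 kb of a gene end. Tardbp, encoding TDP-43, had one in the untreated list alone, with 4 fragments.

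Hnrnph1 and Hnrnpf were singled out once their values were known. Each has several listed starts and had summits within 1 kb of one of them, but not of the gene ends. Counted by listed start, the other hnRNP family had 7 induced and 5 untreated genes, against 8.89% and 3.94% of all genes with a listed start. Some genes of that family, Hnrnpul2 and Pcbp3 among them, have no listed start. Hnrnph1 held 10 induced and 9 untreated fragments with summits 2 bp apart, a ratio of 0.496 (0.181 to 1.38). Its untreated peak thus held more fragments than that of Hnrnpa3, the only one of the 10 genes with an untreated gene-end peak. Of 13 SR splicing factor genes 3 had an induced gene-end peak (23.1%) and 2 an untreated one (15.4%). The shares of all protein-coding genes were 8.43% and 3.73%. Srsf7 had both, with 8 induced and 5 untreated fragments, Srsf1 and Srsf10 had 6 induced fragments each, and Srsf5 had 4 untreated ones. None of the intervals for these peaks in both lists lay off 1, and the lists of genes were not tested against each other.

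**Figure D4:**
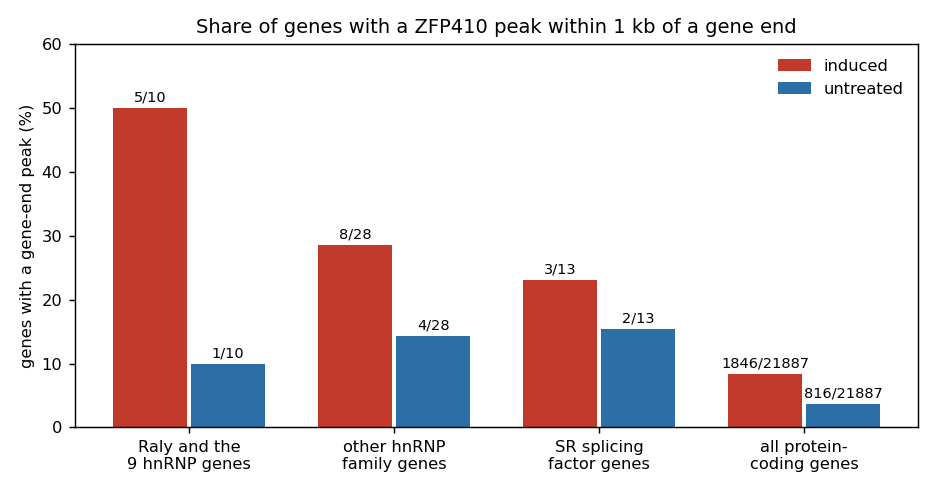
Share of genes with a ZFP410 summit within 1 kb of a gene end (y axis, %) for Raly and the 9 hnRNP genes, other hnRNP family genes, SR splicing factor genes and all protein-coding genes (x axis), in the induced (left bar) and untreated (right bar) library, with counts above the bars. The 10 genes stand at 5 and 1, but they were chosen with these peaks known.

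IgG gave no peak at or inside any of the 10 genes, where 0.0366% of all protein-coding genes had an IgG gene-end peak. The share of all genes with an IgG summit inside them is not given here. The nearest IgG summit to any of them was 164999 bp from Hnrnpa1. At the enrichment of the induced Raly site the IgG library would have held 1.78 fragments (1.07 to 2.78), and its weakest peak held 2. The lack of an IgG peak therefore says little at this depth, and no IgG library of induced cells was analysed here.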

How the data were processed

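CUT&Tag was done with ZFP410 antibody on induced and on untreated cells and with IgG on untreated cells, 1 library each. Per the submitters' processing notes, Bowtie2 2.2.6, Picard and MACS2 2.1.1 were used with mm10. The deposited peak lists carry a q threshold of 0.1 in the peak names. For each peak the authors give a score, the fold (a ratio over the local background), −log10 of the p-value and −log10 of the q-value, and the summit. What control the caller used and how duplicates were handled is not given in the sources used here. Library depth is not in the deposited lists.

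From the authors' fold and p-value, taken as (fragments + 1)/(background + 1) and a Poisson tail, whole summit fragments were recovered for 7473 of 7475 induced, 3255 of 3256 untreated and all 480 IgG peaks, within 0.001 in −log10 p. Beyond this match, whether the recovered numbers are the true fragments at the summits was not tested. Folds of different lists were not compared. Libraries were scaled by their genome-wide background. Genes, starts and promoter sequences are RefSeq's (GRCm38.p6), and all 10 genes matched by symbol. Of the 29 other hnRNP family genes 28 matched. The values of 1 gene of that list are not reported here. Calculations used Python 3.11.15, numpy 2.4.6, pandas 2.3.3 and scipy 1.17.1.

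The genes, the lists and the named genes were chosen with earlier results of these data known. The text names the 10 genes whatever their values, the listed family genes with a gene-end peak, and genes that share a peak. Intervals cover counting error only. Alternatives were other windows, stricter −log10 q and fold bounds, distance from the peak's edge, other overlaps and scales.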

Additional observations from a re-analysis of the deposited data

How the results depend on the processing

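No paired analysis was possible because each group has 1 library, and leaving out a library was not possible for the same reason. With windows of 500 bp and 2 kb, a −log10 q or a fold of at least 5, distance from the nearest base of the peak, and the RefSeq start (added after the data had been seen), the induced count of the 10 genes stayed between 4 and 6. Over all protein-coding genes the induced share was 7.16% at 500 bp, 9.81% at 2 kb, 4.42% at the q bound and 5.87% at the fold bound. Hnrnpd was lost at either bound of 5, and Hnrnpu was gained by the 2 kb window and by the distance from the nearest base. A −log10 q of at least 5 left 0 of the 10 genes in the untreated list, where it left 1.00% of all genes. At that bound, 3 induced and 1 untreated genes of the other hnRNP family and 1 induced and 0 untreated SR genes were left. With a window of 500 bp the untreated SR count was 1, where 2.99% of all protein-coding genes had an untreated peak. The ratios at Hnrnpa3 and at the peak beyond Hnrnpu were 0.796 and 0.597 scaled by relative depth (2.01), and 0.864 and 0.648 scaled by the median of shared peaks. Relative depth was not measured. It was taken from the commonest raised local background, 0.406 fragments in the induced and 0.202 in the untreated list. This too assumes that both lists were called against the same control. Summits within 100 bp could not give a value for Hnrnpa3, since its summits were 117 bp apart. The depth limits what an absent untreated peak can show at Hnrnpd, Hnrnpa1 and Hnrnpc. At Raly the expected number lay above the weakest call, but it too can be too high, since the site was chosen by its induced peak. Of the 47 induced gene-end peaks with 16 to 19 fragments, 24 overlapped an untreated peak.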

Other observations

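One IgG peak lay inside a gene of the wider family. It was in Ptbp3, which encodes a polypyrimidine tract-binding protein, at 59516754 to 59517355 on chromosome 4 (mm10), and it held 14 fragments over a local background of 0.317, at an authors' fold of 11.4. Its summit was 32375 bp from the nearer end of the gene, and Ptbp3 had no summit inside it in either ZFP410 list. Srsf5 had overlapping peaks on both sides of the 1 kb limit, with 5 induced fragments at 80946281 to 80946714 on chromosome 12 and 4 untreated ones at 80946069 to 80946304. The summits were 1131 and 641 bp from the gene end, so that the gene counted in the untreated list alone.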
